A study of Homo sapiens with 12 samples.

Results

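The response of control PC3 cells to a coating of collagen type I was described from 6 of the 12 sequenced libraries of the study, namely all 3 libraries of COL1-PC3 and all 3 libraries of CCP-PC3, in a fit of these 6 libraries alone. PC3 is an established line of prostate cancer cells derived from a bone metastasis. The cells used here are the control line of the study, which carries a Sleeping Beauty transposon plasmid with a red fluorescent protein and puromycin resistance but no SFRP2 insert. Both groups therefore share this plasmid, the puromycin treatment and the enrichment for red fluorescence, and the sources name 1 such line. COL1-PC3 cells grew in T25 flasks coated with 20 µg/mL of collagen 1 isolated from rat tails, and CCP-PC3 cells in the same flasks of culture-treated polystyrene without the coating. In both groups 100000 cells were seeded in medium with fetal bovine serum, and RNA was taken after 5 days. The other 6 libraries come from PC3SFRP2 cells, which overexpress SFRP2, on the same surfaces. The labels call the libraries biological replicates, and no source says that they came from separate cultures, so the spread behind the p-values may be a technical one.

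Collagen type I is the main fibrous protein of bone matrix. Cells bind it through integrin dimers made of the beta 1 chain, ITGB1, with the alpha chains ITGA1, ITGA2, ITGA10 or ITGA11, and through the receptor tyrosine kinases DDR1 and DDR2. Bound integrins gather adaptor proteins such as talins and vinculin into focal adhesions, which connect the matrix to actin and myosin filaments. Actin assembly releases cofactors of serum response factor (SRF), a transcription factor that binds CArG boxes in the promoters of many contractile genes.

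The libraries held 5893267 to 9059700 counts in genes in COL1-PC3 and 7472812 to 9975972 in CCP-PC3. Pearson's correlation of log2 CPM (counts scaled to a common library size by TMM) across genes was 0.971 to 0.979 between libraries of COL1-PC3 and 0.979 to 0.982 between those of CCP-PC3. Between a COL1-PC3 and a CCP-PC3 library it was 0.964 to 0.982, which overlaps the ranges within the groups. Transcripts of the mitochondrial genome took 22.2% ± 1.57 of the counts in COL1-PC3 and 21.5% ± 1.499 in CCP-PC3 (SD, n = 3 each; two-sided exact permutation test p = 0.6, where 0.1 is the smallest p that 3 against 3 libraries can give). That difference changed sign without the first COL1-PC3 library (-0.226 percentage points) or without the first CCP-PC3 library (-0.173). Across 9397 genes the log2 fold change between the groups followed the GC content of the transcripts (Spearman correlation 0.48, with genes that are not independent replicates). Its median was 0.20 in the tenth of the genes richest in GC and -0.13 in the tenth poorest in GC. The deviation of a library from the mean correlated with GC content at 0.592, 0.168 and -0.433 in the COL1-PC3 libraries and at -0.049, 0.031 and -0.510 in the CCP-PC3 libraries. SFRP2 itself was low in the control line on both surfaces, at 26.9, 20.2 and 10.6 CPM in COL1-PC3 and 10.2, 15.6 and 24.2 CPM in CCP-PC3, with a log2 fold change of 0.19 (adjusted p = 0.887).

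Of 17845 genes with at least 10 counts over the 6 libraries, 12 passed the quasi-likelihood test of edgeR with a Benjamini-Hochberg adjusted p below 0.05 and are termed called (0.0672% of those tested), 8 of them higher in COL1-PC3 (0.0448%) and 4 lower (0.0224%). The higher genes were TAGLN, ACTG2, IL6, KRTAP2-3, MYL9, TMEM40, LCN2 and GPRC5A, and the lower ones TCN1, HPGD, HAS3 and PHACTR3. A log2 fold change beyond 1 was reached by 8 of the 12, 6 higher and 2 lower, and TAGLN alone passed a log2 fold change of 2. The median log2 fold change of all genes tested was -0.01. Without adjustment 1577 genes had a p below 0.05 (8.84%), 894 of them higher (5.01%) and 683 lower (3.83%). The 3 COL1-PC3 libraries lay above the 3 CCP-PC3 libraries in 1101 genes (6.17%) and below them in 1264 genes (7.08%). In bulk RNA a gene made by fewer cells and a gene made at a lower level per cell cannot be told apart, which holds for every level below.

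**Figure D1:**
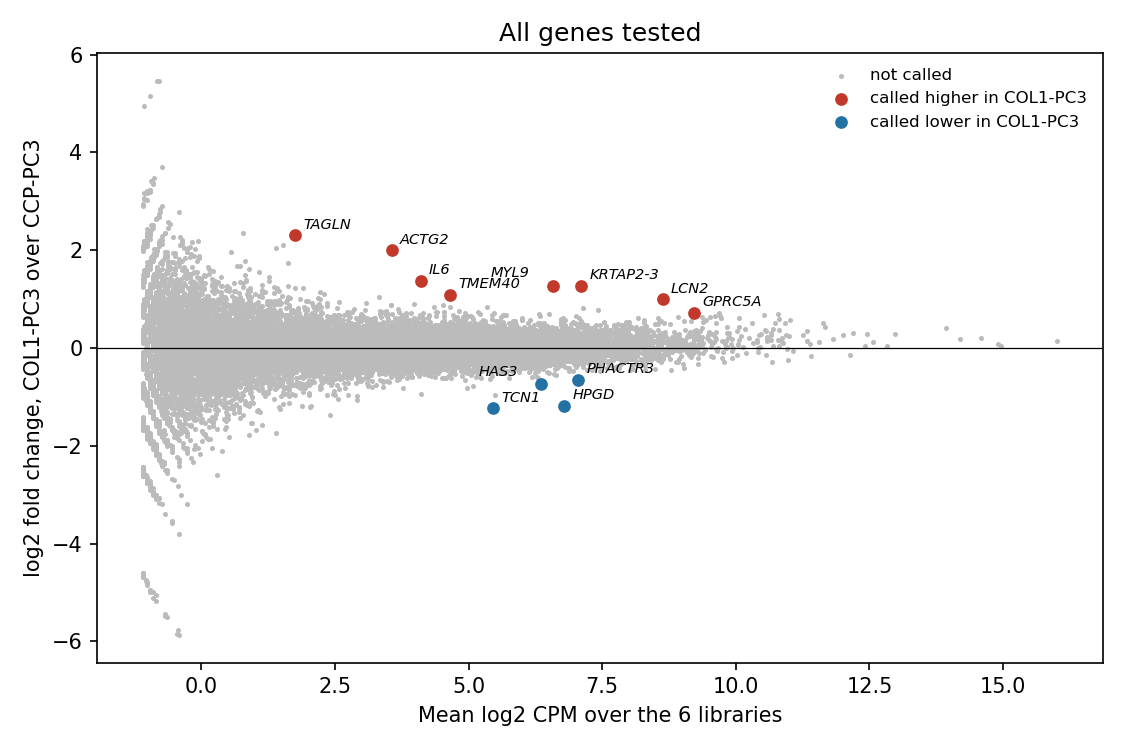
Log2 fold change of COL1-PC3 over CCP-PC3 against the mean log2 CPM over the 6 libraries for the 17845 genes tested, 1 point per gene; the 8 genes called higher are red and the 4 called lower are blue. TAGLN and ACTG2 have the highest log2 fold changes among the called genes (2.31 and 1.996), while uncalled genes near the left edge reach larger values at a few counts per library.

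Genes of the smooth muscle contractile apparatus were the group with most called members. TAGLN encodes transgelin, an actin-binding protein of smooth muscle, and had 6.67, 5.43 and 4.56 CPM in COL1-PC3 against 1.07, 1.06 and 1.16 CPM in CCP-PC3. These levels rest on 36, 35 and 42 counts in COL1-PC3 and on 11, 8 and 9 counts in CCP-PC3. The 2 groups were far apart, and TAGLN rose, its log2 fold change being 2.31 (SE, the standard error, 0.34, adjusted p = 0.00522). ACTG2, the gene of the gamma actin of visceral smooth muscle, had 26.5, 17.7 and 13.9 CPM in COL1-PC3 and 5.83, 3.83 and 4.50 CPM in CCP-PC3. Its log2 fold change was 1.996 (SE 0.25, adjusted p = 0.000906), with the lowest COL1-PC3 library above the highest CCP-PC3 library. MYL9 encodes the regulatory light chain of smooth muscle and nonmuscle myosin II, and was at 170.5, 133 and 106 CPM in COL1-PC3 and at 54.4, 62.8 and 51.8 CPM in CCP-PC3. Its log2 fold change was 1.27 (SE 0.15, adjusted p = 0.000854). In all 8 genes that rose, the first COL1-PC3 library was the highest of its group and the third the lowest, the order of their deviations with GC content given above. All 12 genes were called again when the libraries were corrected for GC and transcript length; the part of GC content in the size of the changes was not tested beyond this. In GRCh38, TAGLN (ENSG00000149591) lies on chromosome 11 from 117199370 to 117207464, ACTG2 (ENSG00000163017) on chromosome 2 from 73892314 to 73919865, and MYL9 (ENSG00000101335) on chromosome 20 from 36541497 to 36551447.

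**Figure D2:**
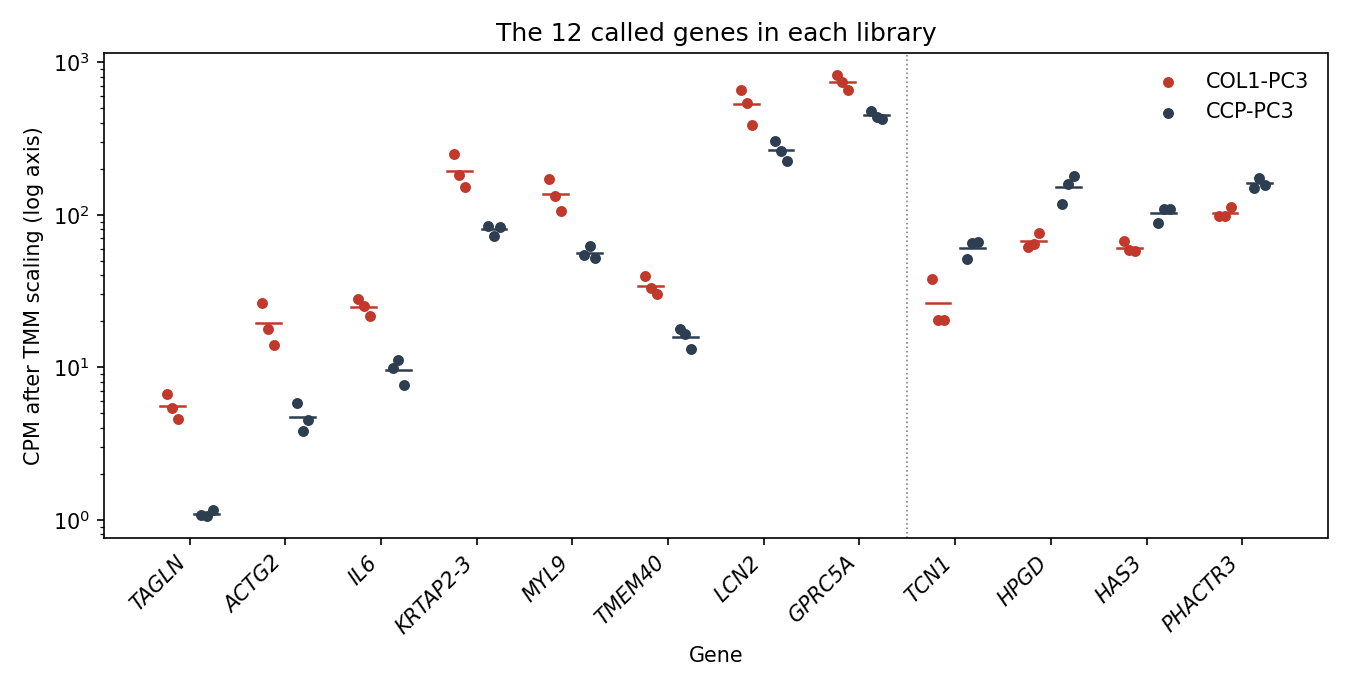
Levels of the 12 called genes in CPM after TMM scaling on a log axis, with the COL1-PC3 libraries in red left of the CCP-PC3 libraries in dark blue; points are the libraries 1 to 3 from left to right and bars are means. No gene has overlapping groups, and TAGLN shows the widest gap, with 4.56 CPM or more in COL1-PC3 and 1.16 CPM or less in CCP-PC3.

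The promoter of ACTG2 is shown because it carries CArG boxes, the letters that SRF binds. RefSeq's table of promoters (GRCh38.p14) held 8 of the 12 called genes; TAGLN, MYL9, GPRC5A and PHACTR3 were not among them. In the 250 bases before the start, searched on both strands, ACTG2 had 2 CArG boxes, and the other 7 of these genes had none. Among all 27305 promoters in the table, 1.14% held at least 1. The runs below are on the plus strand of chromosome 2, 73892858 to 73892924 and 73892925 to 73892954, with the CArG boxes in capitals; a match of letters is a description and does not show binding. The start is RefSeq's, and it lies inside the gene span given above, which is GENCODE's.
ACTG2, 150 to 84 bases before the start: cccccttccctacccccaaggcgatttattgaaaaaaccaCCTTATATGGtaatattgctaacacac
ACTG2, 83 to 54 bases before the start: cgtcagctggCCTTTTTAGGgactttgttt

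Of the 20 genes listed for smooth muscle actomyosin, 16 had enough counts to be tested. TAGLN, ACTG2 and MYL9 were called higher, and none was called lower, against 0.0448% and 0.0224% of all genes. These 16 had a median of 0.24 on the log2 scale, against -0.01 over all genes, and 6 of them had all COL1-PC3 libraries above all CCP-PC3 libraries, against 6.17% of all genes. This list, like the others, was chosen with earlier results of these data known. Its values include its 3 called genes and are a description, not a test. CSRP1, a LIM domain protein of actin bundles, was at 115, 94.3 and 76.7 CPM in COL1-PC3 and 73.0, 70.6 and 55.7 CPM in CCP-PC3 (log2 fold change 0.52, adjusted p = 0.355). MYL6, the essential light chain of myosin, was at 216, 178 and 167 CPM in COL1-PC3 and 147, 147 and 130.1 CPM in CCP-PC3 (log2 fold change 0.40, adjusted p = 0.379). The groups did not overlap in either gene, yet neither passed the test over all genes. TGFB1I1, which encodes the focal adhesion adaptor Hic-5, had log2 fold change 0.66 (adjusted p = 0.362), and its groups overlapped. Other parts of the same apparatus showed no such difference. MYLK, the kinase that phosphorylates the regulatory light chain, had 9.45, 11.3 and 10.7 CPM in COL1-PC3 and 10.4, 9.38 and 10.4 CPM in CCP-PC3 (log2 fold change 0.06, SE 0.20). The actin-binding genes CALD1 and TPM1 and the nonmuscle heavy chain MYH10 had log2 fold changes of -0.05, 0.01 and -0.04, with standard errors of 0.12 to 0.14. ACTA2, the alpha actin of vascular smooth muscle, stayed at 0.371, 0.155 and 0.652 CPM in COL1-PC3 and 0.680, 0.264 and 0.772 CPM in CCP-PC3, and MYH11, the heavy chain of smooth muscle myosin, was at 0.925 CPM or less in every library. TPM2, a tropomyosin gene, had the largest decrease among members above 2 CPM, at log2 fold change -0.70 (SE 0.32, adjusted p = 0.535). The list's count of 3 called members became 2 without the second COL1-PC3 library, the first CCP-PC3 library or the second CCP-PC3 library, 7 without the third COL1-PC3 library and 1 with DESeq2. It was 0 with all 12 libraries in 1 fit and 3 with all 4 groups but without the third COL1-PC3SFRP2 library. With no filter or the GC correction it was 4, and with the replicate number as a block 7. The block with the GC correction gave 6 higher and 1 lower. Calls rose over all genes in these fits too. Genes called higher numbered 494 of 17161 without the third COL1-PC3 library, 106 of 29252 with no filter and 63 of 17845 with the GC correction. With the block 518 were called higher, and with the block and the GC correction 548.

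**Figure D3:**
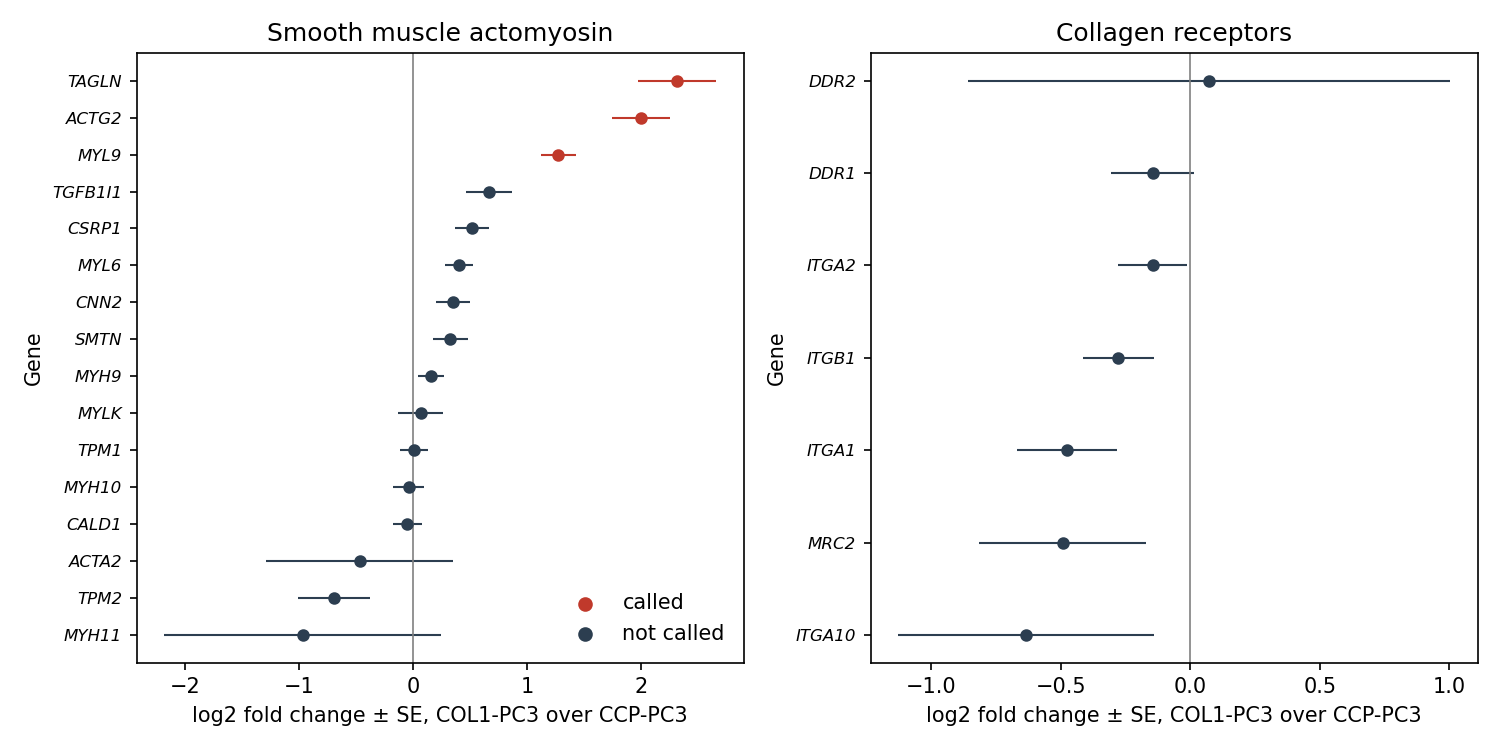
Log2 fold change of COL1-PC3 over CCP-PC3 with its standard error for the 16 tested members of the smooth muscle actomyosin list (left) and the 7 tested collagen receptors (right), with called genes in red. TAGLN, ACTG2 and MYL9 stand apart from the other contractile genes, and 6 of the 7 collagen receptors lie below 0 without passing the test.

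IL6 and LCN2 were the called genes of the list of inflammatory cytokines and targets of NF-kB, a transcription factor of inflammatory signaling. IL6 encodes a secreted cytokine that signals through gp130 and STAT3. Its level was 28.0, 25.3 and 21.7 CPM in COL1-PC3 and 9.81, 11.2 and 7.59 CPM in CCP-PC3. IL6 rose, at log2 fold change 1.38 (SE 0.19, adjusted p = 0.00239), with the groups well apart. LCN2 encodes lipocalin 2, a secreted protein that binds bacterial iron carriers, and had 658, 543 and 385 CPM in COL1-PC3 and 306, 262 and 223 CPM in CCP-PC3. All COL1-PC3 libraries of LCN2 were above those of CCP-PC3, though they differed more among themselves than those of IL6 did, and the log2 fold change was 1.00 (SE 0.16, adjusted p = 0.00881). IL6 (ENSG00000136244) lies on chromosome 7 from 22725884 to 22732002 and LCN2 (ENSG00000148346) on chromosome 9 from 128149071 to 128153453. Their promoters are shown because each held 1 kappa B motif, the letters bound by NF-kB, in the 250 bases before the start, while ACTG2, HAS3, HPGD, KRTAP2-3, TCN1 and TMEM40 held none. This motif was present in 5.05% of all promoters tabulated. In LCN2 the match is on the minus strand. The letters GGAATG and TGANTCA (N for any base) were searched too, and were in 11.9% and 6.6% of all promoters. LCN2 held 2 of GGAATG and 1 of TGANTCA, and TMEM40 held 1 of GGAATG. The first letters marked in LCN2 are also a GGAATG match. Both runs are on the plus strand of GRCh38.p14, chromosome 7 from 22727050 to 22727146 and chromosome 9 from 128149265 to 128149364, with the motif in capitals. As for ACTG2, RefSeq's starts lie inside the GENCODE spans.
IL6, 150 to 54 bases before the start: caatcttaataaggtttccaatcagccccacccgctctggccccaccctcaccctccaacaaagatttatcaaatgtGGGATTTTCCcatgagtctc
LCN2, upstream of the start: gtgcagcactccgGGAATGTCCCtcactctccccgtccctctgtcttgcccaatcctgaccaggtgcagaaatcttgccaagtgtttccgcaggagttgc

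Of the 39 genes in the inflammatory list, 30 were tested, 2 were called higher and none lower, against 0.0448% and 0.0224% of all genes. Their median log2 fold change was 0.20, and 9 of the 30 had all COL1-PC3 libraries above all CCP-PC3 libraries, against 6.17% of all genes. These values include IL6 and LCN2, and this list too was chosen with earlier results of these data known. The neutrophil chemokine gene CXCL1 was at 99.8 ± 6.32 CPM in COL1-PC3 and 69.4 ± 8.18 CPM in CCP-PC3 (SD, n = 3 each; log2 fold change 0.52, adjusted p = 0.266). Its relatives CXCL2 and CXCL3 had log2 fold changes of 0.68 and 0.62, and the NF-kB feedback inhibitor TNFAIP3 one of 0.57, all with an adjusted p of 0.40 or more. CCL2, TNF, CSF3 and CXCL10 had 4 counts or fewer in each group and were not tested. Without the second COL1-PC3 library or the first CCP-PC3 library neither IL6 nor LCN2 was called, without the second or the third CCP-PC3 library only IL6 was, and without the third COL1-PC3 library 4 members were. DESeq2 called LCN2 and not IL6. With all 12 libraries in 1 fit 0 members were called, and 2 with all 4 groups but without the third COL1-PC3SFRP2 library. With the replicate number as a block 5 were called higher. The GC correction gave 3 higher and 1 lower, and together with the block 6 higher and 1 lower. Over all genes 494 of 17161 were called higher without the third COL1-PC3 library and 518 of 17845 with the block. The GC correction called 63 higher and 42 lower, and together with the block 548 and 317.

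Beyond these lists, 3 more genes rose. KRTAP2-3 encodes a keratin-associated protein of hair and had 250.2, 182 and 152 CPM in COL1-PC3 and 84.7, 72.0 and 83.5 CPM in CCP-PC3. Its log2 fold change was 1.28 (SE 0.15, adjusted p = 0.000854), with a wide gap between the groups. This gene (ENSG00000212724, chromosome 17 from 41059240 to 41060114) belongs to a family of near-identical neighbours, and how the counting dealt with reads shared among them is not given in the sources used here, so its level is uncertain. TMEM40 encodes a transmembrane protein and was at 39.5, 32.9 and 30.2 CPM in COL1-PC3 and at 17.9, 16.5 and 13.2 CPM in CCP-PC3, at log2 fold change 1.09 (SE 0.17, adjusted p = 0.00881). GPRC5A, an orphan G protein-coupled receptor induced by retinoic acid, had 824, 741 and 656 CPM in COL1-PC3 and 482, 441 and 423 CPM in CCP-PC3. Its change was the smallest of the 8 higher genes, at log2 fold change 0.72 (SE 0.11, adjusted p = 0.00881), and its libraries were close together within each group. TMEM40 (ENSG00000088726) lies on chromosome 3 from 12733528 to 12769457 and GPRC5A (ENSG00000013588) on chromosome 12 from 12891559 to 12917937.

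HPGD, HAS3, TCN1 and PHACTR3 fell on collagen. HPGD encodes the enzyme that inactivates prostaglandin E2 and had 61.0, 64.7 and 75.7 CPM in COL1-PC3 and 118, 159 and 180.5 CPM in CCP-PC3. Every COL1-PC3 library was below every CCP-PC3 library, and the log2 fold change was -1.18 (SE 0.15, adjusted p = 0.000906). HAS3, a synthase of the matrix polysaccharide hyaluronan, had 67.1, 58.3 and 57.4 CPM in COL1-PC3 and 87.8, 108 and 109.7 CPM in CCP-PC3 (log2 fold change -0.74, SE 0.13, adjusted p = 0.0321). TCN1 encodes haptocorrin, a secreted carrier of vitamin B12. It had 38.0, 20.3 and 20.4 CPM in COL1-PC3 and 51.2, 65.2 and 65.9 CPM in CCP-PC3, at log2 fold change -1.23 (SE 0.20, adjusted p = 0.0101). In both groups the first library of TCN1 was the one nearest to the other group. PHACTR3, a regulator of protein phosphatase 1 that binds actin, was at 97.7, 98.7 and 112 CPM in COL1-PC3 and 150.2, 175 and 157 CPM in CCP-PC3 (log2 fold change -0.64, SE 0.12, adjusted p = 0.0498, close to the threshold). HPGD (ENSG00000164120) lies on chromosome 4 from 174490175 to 174523154, HAS3 (ENSG00000103044) on chromosome 16 from 69105653 to 69118719, TCN1 (ENSG00000134827) on chromosome 11 from 59852800 to 59866489 and PHACTR3 (ENSG00000087495) on chromosome 20 from 59577509 to 59847711.

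None of the 12 genes was called when all 12 libraries of the study shared 1 fit, whose biological coefficient of variation was 23.0% against 13.8% in the 6 libraries. All 12 kept their direction with all 12 libraries and when each of the 6 libraries was left out in turn. None of the 12 genes had overlapping groups, so leaving out 1 library could hardly change a direction, and this lends no support. The number called depended on the library. It was 15 without the first COL1-PC3 library, 3 without the second and 690 without the third, and 4, 5 and 6 without CCP-PC3 replicate 1, 2 and 3. KRTAP2-3, MYL9 and ACTG2 were called in all 6 of these fits. HPGD was called in 5 (adjusted p = 0.0561 without the second COL1-PC3 library), IL6 in 4 and TAGLN in 3. The other 6 genes were called only without the first or the third COL1-PC3 library, and their highest adjusted p over the 6 fits was 0.154 for TMEM40, 0.242 for LCN2, 0.255 for GPRC5A, 0.407 for TCN1, 0.702 for HAS3 and 0.858 for PHACTR3.

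**Figure D4:**
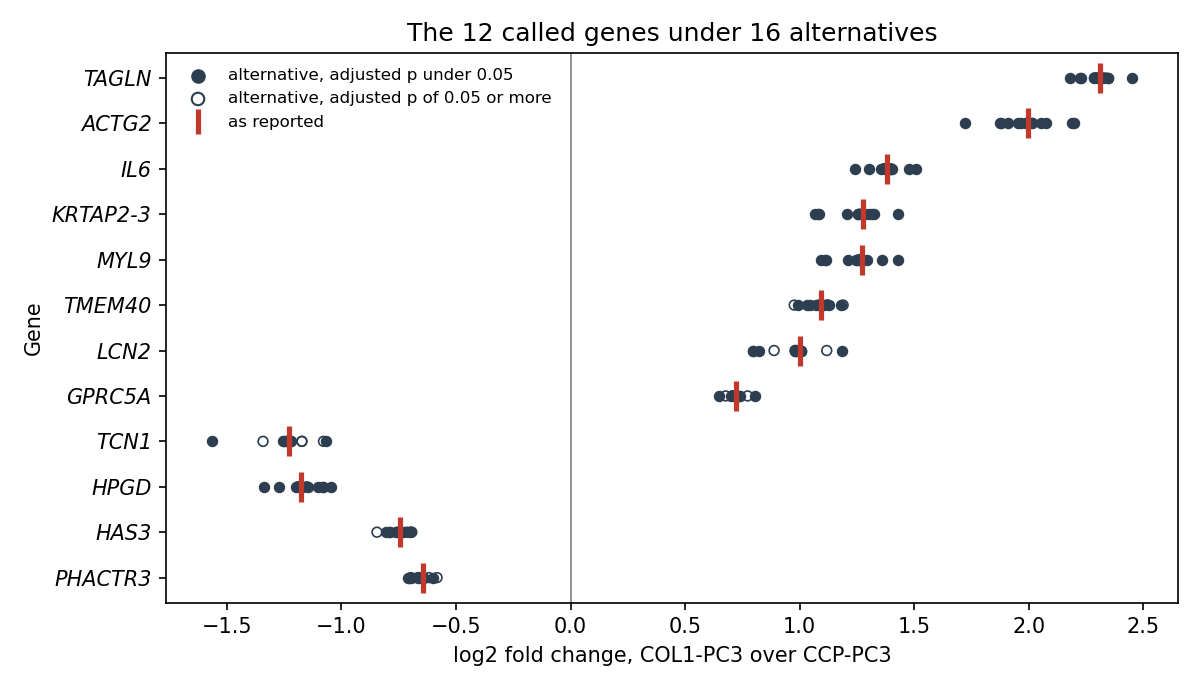
Log2 fold change of COL1-PC3 over CCP-PC3 of the 12 called genes as reported (red bars) and under 16 other ways of processing the counts (circles, filled where the adjusted p was under 0.05). Every gene stays on 1 side of 0, TAGLN between 2.18 and 2.45 and PHACTR3 between -0.71 and -0.58. The direction was largely set in advance, as these ways reuse the libraries that chose the genes.

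The receptors for collagen did not pass the test. Of the 9 collagen receptors listed, 7 were tested, none was called in either direction, and no member had groups apart. Their median log2 fold change was -0.28 (range -0.63 to 0.07), against -0.01 over all genes, and remained negative in all 16 other ways of processing the counts (-0.43 to -0.15). ITGB1, the shared beta chain, was at 179.9, 198 and 274 CPM in COL1-PC3 and 261, 249.8 and 280.2 CPM in CCP-PC3 (log2 fold change -0.28, SE 0.14, adjusted p = 0.586). ITGA2, the alpha chain of the main receptor for fibrillar collagen, was at 201, 221 and 266 CPM in COL1-PC3 and 230.2, 229.7 and 302 CPM in CCP-PC3 (log2 fold change -0.15, SE 0.13). In both genes the third library of COL1-PC3 was the highest of its group and lay within the range of CCP-PC3. ITGA1 had 15.2, 17.8 and 19.98 CPM in COL1-PC3 and 26.04, 18.1 and 30.0 CPM in CCP-PC3, the smallest p of the list (log2 fold change -0.48, adjusted p = 0.493). DDR1 was at 28.4, 26.7 and 27.7 CPM in COL1-PC3 and 29.9, 36.3 and 25.2 CPM in CCP-PC3, and DDR2 at 1.24 CPM or less in every library. MRC2, an endocytic receptor for collagen, had log2 fold change -0.49 (standard error 0.32) and ITGA10 one of -0.63 (standard error 0.49), both at a few CPM. The median GC content of these receptors was 41.6%, on the side of the genes with negative medians described above, and the list's median with the GC correction was -0.25.

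Among 15 tested integrin genes that encode chains for other ligands, none was called, 3 had all COL1-PC3 libraries below CCP-PC3 (7.08% of all genes did), and the median log2 fold change was -0.11. ITGB6, the epithelial partner of the alpha V chain, had 7.78, 8.69 and 12.1 CPM in COL1-PC3 and 13.2, 16.1 and 21.7 CPM in CCP-PC3 (log2 fold change -0.81, adjusted p = 0.330). ITGA6, a laminin receptor chain, had 159, 172 and 210.2 CPM in COL1-PC3 and 226, 237 and 262 CPM in CCP-PC3 (log2 fold change -0.42, adjusted p = 0.355). The groups of ITGB6 and ITGA6 did not overlap, and ITGA3, ITGA5 and ITGB4 had log2 fold changes of 0.12, 0.22 and 0.25 with overlapping groups. Of 33 tested adaptors of focal adhesions none was called, with a median of 0.18. The highest adaptor genes after TGFB1I1 and CSRP1 were LIMS2 at a log2 fold change of 0.52 and TLN2, a talin gene, at 0.46. PTK2, which encodes focal adhesion kinase, was at 242 ± 19.4 CPM in COL1-PC3 and 283 ± 6.42 CPM in CCP-PC3 (SD, n = 3 each; log2 fold change -0.22, adjusted p = 0.592).

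The cells' own matrix genes held no called member apart from HAS3. Of 30 collagen chain genes, 23 were tested, none was called, and 7 had all COL1-PC3 libraries below CCP-PC3, against 7.08% of all genes. Their median log2 fold change was -0.21 and ranged from -0.40 to -0.07 over the other 16 ways of processing. COL2A1, the fibrillar collagen of cartilage, came closest to a call. It had 37.1, 30.7 and 23.5 CPM in COL1-PC3 and 44.98, 73.4 and 58.9 CPM in CCP-PC3, groups that were apart, with a log2 fold change of -0.97 (SE 0.18, adjusted p = 0.0616). COL8A1, a short-chain collagen of basement membranes, was at 7.60, 7.29 and 8.36 CPM in COL1-PC3 and 11.9, 10.8 and 14.8 CPM in CCP-PC3 (log2 fold change -0.68, adjusted p = 0.364). COL13A1, COL5A2 and COL4A5 had log2 fold changes of -0.46, -0.37 and -0.51. COL1A1, which encodes a chain of collagen I itself, was at 10.2, 7.76 and 7.38 CPM in COL1-PC3 and 6.51, 7.53 and 7.08 CPM in CCP-PC3 (log2 fold change 0.25, SE 0.22), and COL1A2 had 0 counts in COL1-PC3 and 1 in CCP-PC3. COL2A1 passed the test in 9 of the 16 other ways of processing, as often as the called PHACTR3. Collagen chain genes called lower numbered 1 with DESeq2, the GC correction, the second alignment, the fit of 4 groups without the third COL1-PC3SFRP2 library or without the first COL1-PC3 library, and 2 with no filter or without the third COL1-PC3 library. They numbered 5 with the replicate number as a block, with or without the GC correction. Over all genes 281 of 17845 were called lower with the block and 317 with the block and the GC correction. Without the third COL1-PC3 library 196 of 17161 were, and with no filter 32 of 29252.

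SPARC encodes a secreted collagen-binding protein of bone matrix. It had 0 counts in each COL1-PC3 library and 6, 11 and 6 counts in CCP-PC3. Set against a floor of 3 counts over the COL1-PC3 libraries, SPARC was 6.61-fold lower in COL1-PC3, a value without allowance for the error of the few CCP-PC3 counts. It did not pass the test (adjusted p = 0.268). THBS1, the gene of the matricellular protein thrombospondin 1, was at 537, 591 and 654 CPM in COL1-PC3 and 452, 406 and 525 CPM in CCP-PC3 (log2 fold change 0.37, adjusted p = 0.408). FN1, which encodes fibronectin, was at 218 ± 5.61 CPM in COL1-PC3 and 197 ± 6.24 CPM in CCP-PC3 (SD, n = 3 each; log2 fold change 0.15, adjusted p = 0.718). Of 25 tested matrix glycoproteins and proteoglycans, 11 tested laminin chains, 21 collagen processing enzymes, 21 metalloproteinases and their inhibitors and 11 genes of plasminogen activation, none was called. PCOLCE, an enhancer of procollagen cleavage, had 14.1, 17.5 and 9.99 CPM in COL1-PC3 and 8.16, 8.86 and 7.20 CPM in CCP-PC3 (log2 fold change 0.76, adjusted p = 0.353). LOXL1, an enzyme of the collagen crosslinking family, had a log2 fold change of 0.31. SERPINE2, which encodes a protease inhibitor that blocks plasminogen activators, was at 27.2, 28.2 and 32.2 CPM in COL1-PC3 and 43.2, 41.9 and 50.0 CPM in CCP-PC3, groups without overlap (log2 fold change -0.62, adjusted p = 0.241). LAMB1 and LAMA3, 2 laminin chain genes, had log2 fold changes of -0.37 and -0.19. MMP1, an interstitial collagenase, was at 2.995 ± 0.509 CPM in COL1-PC3 and 4.10 ± 0.122 CPM in CCP-PC3 (SD, n = 3 each; log2 fold change -0.45, adjusted p = 0.690), and MMP2 and MMP3 had 1 count or none in either group.

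The lists of SRF targets, of YAP and TEAD targets, of TGF-beta signaling and of epithelial state had no called members. The 17 tested SRF targets outside the contractile list had a median log2 fold change of 0.10, with ATF3, a stress-induced transcription factor, at 0.65 (16.7, 20.01 and 15.1 CPM in COL1-PC3 and 10.4, 11.2 and 11.3 CPM in CCP-PC3; adjusted p = 0.346). ACTB, the main nonmuscle actin, had log2 fold change 0.42 (adjusted p = 0.360) with overlapping groups. The 23 targets of YAP and TEAD, a transcriptional pair that responds to stiffness and spreading, had a median of -0.02, which changed sign under 7 of the 16 other ways of processing. Among them IGFBP3, a carrier of insulin-like growth factors, stood out with 63.4, 60.8 and 54.2 CPM in COL1-PC3 and 38.3, 37.9 and 37.8 CPM in CCP-PC3 (log2 fold change 0.64, SE 0.13, adjusted p = 0.114). The defining YAP targets CCN1 and CCN2 had log2 fold changes of 0.23 and -0.24. AXL, a receptor tyrosine kinase gene, was at 249, 241 and 233 CPM in COL1-PC3 and at 179, 187.8 and 201 CPM in CCP-PC3 (log2 fold change 0.35, adjusted p = 0.405). The 23 genes of TGF-beta signaling had a median of 0.01. Of 20 regulators and markers of epithelial-mesenchymal transition none was called, and their median was -0.07. The mesenchymal genes VIM (vimentin) and CDH2 (N-cadherin) had log2 fold changes of 0.28 and -0.25, and the epithelial genes EPCAM and ESRP2 had -0.46 and 0.23. Among 15 tested keratins the median was 0.32, which was 0.14 without the first COL1-PC3 library and 0.21 with the GC correction. KRT81, a hair keratin whose reads near-identical keratins can share, was at 1581, 1253 and 1049 CPM in COL1-PC3 and at 885, 894 and 747 CPM in CCP-PC3, groups that were apart (log2 fold change 0.62, adjusted p = 0.135), and KRT15, a basal keratin, was at 28.7, 23.9 and 26.5 CPM in COL1-PC3 and 39.5, 42.0 and 34.1 CPM in CCP-PC3 (log2 fold change -0.55, adjusted p = 0.324).

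**Figure D5:**
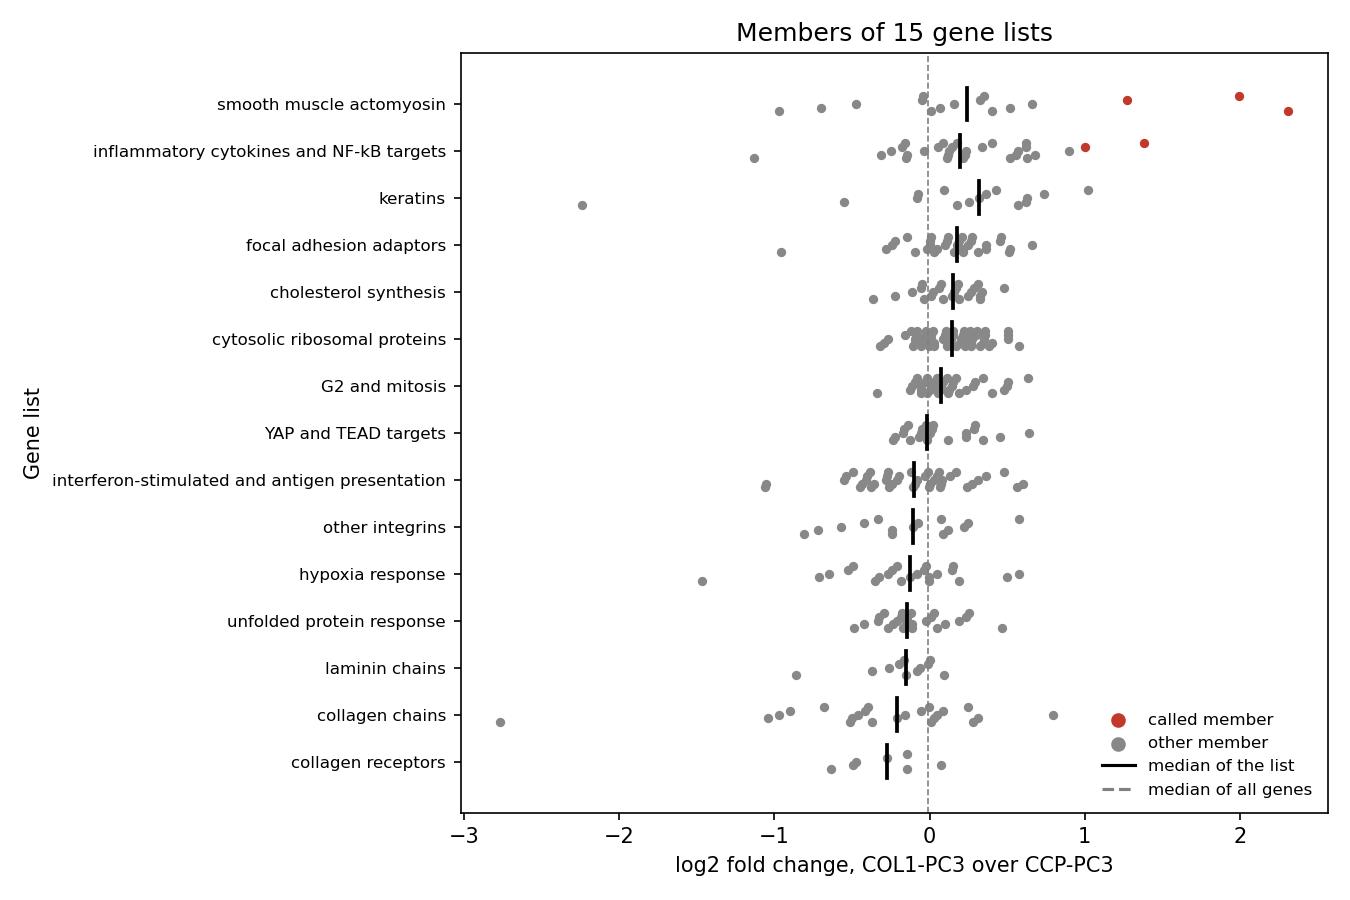
Log2 fold change of COL1-PC3 over CCP-PC3 for every tested member of 15 gene lists; points are genes (called ones red), black bars are list medians and the dashed line is the median of all genes. The list medians lie between -0.28 (collagen receptors) and 0.32 (keratins), and called genes occur in the 2 uppermost lists.

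Among genes of growth, stress and metabolism no listed member was called. At an unadjusted p below 0.05, the share of all genes was 5.01% higher and 3.83% lower, beside which the counts of list members at that p stand. Of 35 tested genes of G2 and mitosis, 7 had an unadjusted p below 0.05 and were higher in COL1-PC3, and none was lower, with a median log2 fold change of 0.08. PTTG1, which encodes the chromatid separation inhibitor securin, was at 472, 412 and 376 CPM in COL1-PC3 and 325, 312 and 255 CPM in CCP-PC3 (log2 fold change 0.50, adjusted p = 0.266). The 37 genes of S phase had a median of 0.03. MYC was at 409, 403 and 333 CPM in COL1-PC3 and 287, 292 and 306 CPM in CCP-PC3 (log2 fold change 0.37, adjusted p = 0.379). Among 56 cytosolic ribosomal proteins 17 were higher and 2 lower at an unadjusted p below 0.05. Reads of these genes can be shared with their many pseudogenes, so their levels are uncertain. Their median was 0.15 and 0.08 with the GC correction. Without the third COL1-PC3 library 12 of them were called higher, beside 494 of all 17161 genes in that fit. With the replicate number as a block 15 were called higher and 1 lower, beside 518 and 281 of all 17845 genes. Of 24 genes of cholesterol synthesis, 5 were higher and none lower at that p, with INSIG1, a brake on this pathway, at a log2 fold change of 0.48 (adjusted p = 0.407). Of 26 genes of the unfolded protein response 1 was higher and 4 were lower, among them the chaperone gene HSPA5 at 242, 249.9 and 308 CPM in COL1-PC3 and 331, 316 and 358 CPM in CCP-PC3 (log2 fold change -0.33, adjusted p = 0.448). Of 42 interferon-stimulated and antigen presentation genes 2 were higher, a share close to that of all genes, and 8 lower (3.83% of all genes) at an unadjusted p below 0.05. IFITM1, an antiviral membrane protein gene, had 5.74, 2.79 and 5.32 CPM in COL1-PC3 and 10.2, 9.52 and 9.26 CPM in CCP-PC3 (log2 fold change -1.06, adjusted p = 0.266). NDRG1, a gene induced in hypoxia, was at 89.3, 79.7 and 67.8 CPM in COL1-PC3 and 106, 128 and 107 CPM in CCP-PC3 (log2 fold change -0.53, adjusted p = 0.288).

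Osteoblast genes, WNT genes and BMP genes were not called either. The 13 tested osteoblast genes had a median log2 fold change of -0.08, and 8 of the 21 listed had too few counts. Of 24 tested WNT ligands, antagonists and targets 1 was higher and 3 were lower at an unadjusted p below 0.05, against 5.01% and 3.83% of all genes. Their median was 0.15, which the GC correction moved to 0.04. CTNNB1, which encodes beta-catenin, was at 117, 122 and 129 CPM in COL1-PC3 and 156, 143 and 148 CPM in CCP-PC3 (log2 fold change -0.28, adjusted p = 0.504). ID2, a target of BMP signaling, had log2 fold change 0.69 (adjusted p = 0.414). DUSP6, a phosphatase gene that responds to ERK signaling, was at 40.0, 36.9 and 38.4 CPM in COL1-PC3 and 44.8, 59.6 and 57.0 CPM in CCP-PC3 (log2 fold change -0.48, adjusted p = 0.356), and AREG, which encodes the EGF receptor ligand amphiregulin, at 214, 219 and 211 CPM in COL1-PC3 and 179.9, 155 and 175 CPM in CCP-PC3 (log2 fold change 0.33, adjusted p = 0.414). The groups of DUSP6 and of AREG did not overlap. The remaining lists (glycolysis, fatty acid synthesis, hypoxia response, heat shock proteins, NRF2 targets, ATF4 targets, p53 response genes, G1 cyclins, tight junctions and desmosomes, EGF receptor family, nuclear respiratory chain subunits, mitochondrial transcripts and long noncoding RNAs) had medians between -0.24 and 0.17 and no called member.

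The labelled cell line was checked against its markers. KRT8, KRT18, KRT19, EPCAM, CD44 and VIM were all detected, while the prostate genes KLK2, KLK3 and FOLH1 had 2 counts or fewer in either group. Leukocyte and erythroid markers were at or near 0. The 10 leukocyte markers summed to 0.434 to 1.09 CPM in COL1-PC3 and 0.264 to 1.03 CPM in CCP-PC3, and the 5 erythroid markers to 0 to 0.326 CPM in COL1-PC3 and 0 in CCP-PC3. The 11 fibroblast markers summed to 8.69 to 11.1 CPM in COL1-PC3 and 7.58 to 9.25 CPM in CCP-PC3, most of it COL1A1. The 9 endothelial markers summed to 11.7 to 15.8 CPM in COL1-PC3 and 13.0 to 16.8 CPM in CCP-PC3, of which PECAM1 made up 9.88 to 14.6 CPM in COL1-PC3 and 12.3 to 15.6 CPM in CCP-PC3. The 7 neuroendocrine markers summed to 17.8 to 20.4 CPM in COL1-PC3 and 18.2 to 23.4 CPM in CCP-PC3, most of it ENO2. Of these markers, ENO2 and SYP were tested, with log2 fold changes of -0.19 and 0.77 and overlapping groups.

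In PC3SFRP2 cells the same surfaces were compared in a fit of all 12 libraries, in which 20% of 20364 genes were called higher on collagen and 17.8% lower. Which sample the third COL1-PC3SFRP2 library is could not be settled, because a further deposited table gives its counts under the number of another library of that group and holds other counts under its own, so every value that rests on it is uncertain. TAGLN was at 13.0, 10.9 and 5.39 CPM in COL1-PC3SFRP2 and 2.48, 1.67 and 1.76 CPM in CCP-PC3SFRP2, at log2 fold change 2.30 (adjusted p = 0.000505). ACTG2 had a log2 fold change of 2.16 there (adjusted p = 0.000843), MYL9 one of 1.08 (adjusted p = 0.00215), LCN2 one of 1.42 (adjusted p = 0.000478), TMEM40 one of 0.85 (adjusted p = 0.0250) and GPRC5A one of 0.46 (adjusted p = 0.0248). The collagen effect on these 6 genes was not called different between PC3SFRP2 and PC3 in the test of the interaction, in which 7.53% of all genes were called, and the lowest of their adjusted p was 0.299. In simulated data this test found 43% of genes changed by a log2 fold change of 1, so a missing call does not show an equal effect. IL6 was at 25.3, 20.03 and 1.797 CPM in COL1-PC3SFRP2 and 12.4, 11.7 and 11.98 CPM in CCP-PC3SFRP2, with the column of that doubtful library below its controls and the other libraries above them. HAS3, TCN1 and PHACTR3 had their highest COL1-PC3SFRP2 level in that same library. HPGD was at 6.48, 11.2 and 32.1 CPM in COL1-PC3SFRP2 and 32.6, 33.0 and 30.5 CPM in CCP-PC3SFRP2. Without that library 18.7% of 20103 genes were called higher and 18.1% lower, and the log2 fold changes in PC3SFRP2 were 0.91 for IL6 (adjusted p = 0.000246), -1.86 for HPGD (adjusted p = 3.61e-08), -1.17 for PHACTR3 (adjusted p = 1.23e-06), -0.70 for TCN1 (adjusted p = 0.0325) and -0.18 for HAS3 (adjusted p = 0.388). Among the 12 genes, KRTAP2-3 alone passed the test of the interaction in this fit. HAS3 had an interaction log2 fold change of 1.73 (adjusted p = 0.0763), which was 0.59 (adjusted p = 0.0280) without the doubtful library and passed with DESeq2 (adjusted p = 0.0362). TCN1 had one of 1.86 (adjusted p = 0.0920), which was 0.55 (adjusted p = 0.243) without that library and passed with DESeq2 (adjusted p = 0.0472). KRTAP2-3 had 54.7, 51.5 and 10.8 CPM in COL1-PC3SFRP2 and 77.3, 60.4 and 81.6 CPM in CCP-PC3SFRP2, all COL1-PC3SFRP2 libraries below their controls, in contrast to PC3 (interaction log2 fold change -2.16, adjusted p = 0.0381). The interaction of KRTAP2-3 had an adjusted p of 0.0552 to 0.110 when any 1 of the 6 PC3 libraries was left out and of 3.99e-06 without the third COL1-PC3SFRP2 library.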

How the data were processed

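RNA was sequenced from PC3 cells after preparation with a SENSE mRNA-Seq kit. Alignment by the authors used STAR and GRCh38, and their deposited values are raw counts per Ensembl gene and library. The counting tool and its strand setting are not given in the sources used here, so overlapping genes on opposite strands may not be separated. The deposited workbook had 5 tables, of which the table of 12 libraries was used, and a table from a second alignment for 1 alternative. Of 80 columns of samples, 62 were not used.

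The 17845 genes whose 6 libraries sum to 10 counts or more were scaled by TMM and tested by the quasi-likelihood test of edgeR 4.0.16 in R 4.3.3, with Benjamini-Hochberg adjustment over all of them and an adjusted p under 0.05 as the call. The interaction used all 12 libraries. Positions, GC content and transcript length came from GENCODE's annotation of GRCh38. Promoter sequences are RefSeq's for GRCh38.p14. The 44 gene lists, the tests and the genes compared were chosen with earlier results of these data known. Named genes were, by rule, up to 12 called genes a direction with groups apart and at least 2 CPM in the higher group, up to 4 called members of a list or, with none called, up to 2 with the smallest p, all collagen receptors and smooth muscle actomyosin genes, and SFRP2; other genes named were picked after their values were seen. The fits were tested on simulated data with known changes, with 1 spread for all genes and no trend with GC content. At a log2 fold change of 1 the 6-library fit found 87% of the changed genes and the interaction 43%. At 2 they found 98% and 94%. Real data can differ from this setting. The depth given in the report limits the precision of low genes. The alternatives were other scaling, filters, DESeq2 1.42.0, other sets of libraries, the replicate number as a block, a GC and length correction, and the second alignment.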

Additional observations from a re-analysis of the deposited data

Results flagged for a closer look

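The effect of collagen on KRTAP2-3 passed a test of the difference between the cell lines (interaction log2 fold change -2.16, adjusted p = 0.0381 from edgeR, 12 libraries), as did 7.53% of all genes. The gene was higher on collagen in 3 of 3 COL1-PC3 libraries and lower in 3 of 3 COL1-PC3SFRP2 libraries, the third of which had 10.8 CPM against 54.7 and 51.5 CPM in the others. DESeq2 gave an adjusted p of 0.00421 and the fit with the replicate number as a block one of 0.0753. Which sample this last library is could not be settled, since deposited tables disagree on its column. Without it the interaction was -1.72 (adjusted p = 3.99e-06).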

How the results depend on the processing

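The 12 genes kept their direction in all 16 alternatives, which reuse the libraries that chose these genes and so lend the direction no separate support. The count of calls was 11 with DESeq2 size factors, 10 with filterByExpr and 14 in the second alignment. It was 26 with DESeq2 (14 higher, 12 lower, 9 of the 12 among them), 138 with no filter on low counts (106 higher, 32 lower) and 105 with the GC correction (63 higher, 42 lower). With all 4 groups but without the third COL1-PC3SFRP2 library it was 36 (22 higher, 14 lower, all 12 among them). With filterByExpr 2 were lower. All 12 libraries in 1 fit gave 0 calls with edgeR, where 793 genes had an unadjusted p under 0.05. Leaving out 1 library gave 3 to 690 calls, 3 to 494 higher and 0 to 196 lower, and 3 to 61 beyond a log2 fold change of 1. The count beyond 1 was 8 as reported, 20 with no filter, 15 with the GC correction and 0 with all 12 libraries. The cause of these differences was not tested. Libraries with the same number deviated together at correlations of 0.209, -0.032 and 0.364, and those with different numbers at -0.350 to 0.199. These values do not settle whether the numbers pair the samples, and the main fit took no pairing. The biological coefficient of variation was 9.49% with the replicate number as a block and 13.8% as reported. With the replicate block 799 genes were called (518 higher, 281 lower, 50 beyond 1), and 865 with the replicate block and the GC correction (548 higher, 317 lower, 51 beyond 1). The interaction counted 1533 genes, 4040 without the third COL1-PC3SFRP2 library, 3837 with DESeq2, 2 with the replicate block and 2 to 1466 without 1 library. The mitochondrial difference of 0.681 percentage points ranged from -0.226 to 1.23 without 1 library (-0.173 without the first CCP-PC3 library).

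Of the genes named, 7 that were not called as reported had a log2 fold change of the other sign in at least 1 alternative, 17 values in all. CALD1 was at 0.057 with the GC correction, with or without the replicate block (0.0574 and 0.0575). TPM1 was at -0.000213 with no filter, -0.00638 with all 12 libraries and -0.0149 with all 4 groups but without the third COL1-PC3SFRP2 library. Leaving out 1 library gave -0.14 to 0.057 for CALD1, -0.048 to 0.065 for TPM1, -0.96 to 0.83 for DDR2, -0.098 to 0.013 for MYH10 and -0.11 to 0.55 for SFRP2. In the second alignment PGAM1 was at -0.26 and COL3A1 at 0.41. TAGLN, with 8 to 42 counts a library, and SPARC are limited by depth.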

Other observations

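Further genes lay close to the threshold without passing it, chosen after their values were seen. IL24, which encodes a cytokine of the IL-10 family, had 5.37, 4.19 and 4.13 CPM in COL1-PC3 and 1.55, 0.264 and 1.16 CPM in CCP-PC3 (log2 fold change 2.11, SE 0.42, adjusted p = 0.0867 from edgeR), on 2 to 38 counts a library. PPBP, the gene of a chemokine known from platelets, had 3.34, 2.95 and 1.85 CPM in COL1-PC3 and 0.583, 0.264 and 0.643 CPM in CCP-PC3 (log2 fold change 2.36, SE 0.52, adjusted p = 0.151). Both had groups that did not overlap.

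DPP4, a cell surface peptidase gene, had 10.6, 13.96 and 10.4 CPM in COL1-PC3 and 19.04, 23.7 and 24.2 CPM in CCP-PC3 (log2 fold change -0.93, SE 0.19, adjusted p = 0.0867). CADPS2, which encodes a protein of vesicle release, had 23.7, 24.4 and 19.8 CPM in COL1-PC3 and 34.7, 38.6 and 45.7 CPM in CCP-PC3 (log2 fold change -0.81, SE 0.16, adjusted p = 0.0765). In both genes every COL1-PC3 library was below every CCP-PC3 library.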
